A study of Homo sapiens with 6 samples.

Results

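The 5 genes described here, out of 17187 gene symbols in the deposited table, are SLAMF8, CAND2, BANCR, IRG1 and CACNA1I. They were picked by symbol because they had almost no reads in control cells and were present after interferon gamma (IFNg), so their contrast between the groups is given as a description, with no test. HT-1080 is an established human fibrosarcoma line, grown here as wild-type cells. The control group was 3 libraries from cells given PBS. The IFNg group was 3 libraries from cells given recombinant IFNg at 10 ng/ml for 8 h. Ribosomal RNA was depleted from total RNA and stranded libraries were read as paired ends, so transcripts with and without a poly(A) tail were sampled. Libraries held 59556948 to 83501954 reads assigned to genes. Whether each library is its own culture is not stated in the labels, so the p-values reflect library-to-library spread that could be purely technical. The libraries numbered 3 had the lowest scores of their groups on the second principal component, IFNg 3 most of all, and results that change without them are given both ways. In bulk RNA, fewer cells that express a gene and less RNA per cell cannot be told apart.

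IFNg binds its receptor and activates the kinases JAK1 and JAK2. Signalling reaches gamma-activated sites in promoters and induces IRF1, a factor that binds AANNGAAA-type elements and carries the response to a second set of genes. The same cytokine activates macrophages, and 2 of the genes are best known from those cells. SLAMF8 is a surface receptor of the SLAM family that restrains oxidant production in macrophages. IRG1, now named ACOD1, is the mitochondrial enzyme that makes itaconate from the citrate cycle intermediate cis-aconitate. The others are known from other tissues. CAND2 is the muscle-enriched relative of CAND1, which exchanges the substrate receptors of cullin ubiquitin ligases. CACNA1I encodes the pore subunit of the Cav3.3 T-type calcium channel of thalamic neurons. BANCR is a long noncoding RNA described in melanoma cells with activated BRAF, where it was linked to cell migration and to the chemokine gene CXCL11. The files hold 1 cell line, so the tissue restriction of the genes was not tested here.

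Promoters are shown so that the DNA before each start site can be read beside the values; the genes were picked for a common pattern, so that pattern says nothing of a shared sequence. RefSeq's promoter table (build GRCh38.p14) matched 4 of the 5 genes, IRG1 through its current symbol ACOD1, and has no entry for BANCR. Printed are the 250 bases before the start site, on the plus strand in all 4. Capitals mark a match to AANNGAAA on either strand.
SLAMF8, chr1:159826623-159826872: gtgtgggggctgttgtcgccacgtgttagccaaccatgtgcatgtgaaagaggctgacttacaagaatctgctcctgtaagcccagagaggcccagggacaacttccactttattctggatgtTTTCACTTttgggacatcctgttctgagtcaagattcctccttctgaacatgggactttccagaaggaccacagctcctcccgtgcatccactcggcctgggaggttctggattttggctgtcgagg
IRG1, chr13:76948261-76948510: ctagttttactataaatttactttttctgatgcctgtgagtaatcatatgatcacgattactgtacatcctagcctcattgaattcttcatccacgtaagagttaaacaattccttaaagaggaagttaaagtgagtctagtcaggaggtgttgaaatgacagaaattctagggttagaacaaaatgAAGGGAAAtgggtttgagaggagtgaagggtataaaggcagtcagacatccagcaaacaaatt
CAND2, chr3:12796430-12796679: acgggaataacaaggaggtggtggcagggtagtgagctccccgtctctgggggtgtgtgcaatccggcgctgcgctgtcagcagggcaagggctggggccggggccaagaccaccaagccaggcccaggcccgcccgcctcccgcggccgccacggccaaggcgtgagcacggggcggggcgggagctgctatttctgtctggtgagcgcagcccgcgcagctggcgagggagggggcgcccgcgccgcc
CACNA1I, chr22:39570503-39570752: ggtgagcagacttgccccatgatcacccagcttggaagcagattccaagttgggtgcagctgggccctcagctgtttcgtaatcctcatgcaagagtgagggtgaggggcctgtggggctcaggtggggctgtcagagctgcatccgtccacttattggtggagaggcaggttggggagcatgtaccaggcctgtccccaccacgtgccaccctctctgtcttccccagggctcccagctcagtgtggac

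Neither the gamma-activated site TTCNNNGAA, a palindrome, nor the tandem IRF element (GAAA, any 2 bases, GAAA) was found in any of the 4 windows of 300 bases (250 before and 50 after the start), read on both strands. Of all 35116 promoters in the table, 7.66% held the first and 3.57% the second. The shorter AANNGAAA, searched after the sequences had been seen, matched in SLAMF8 (127 to 120 bases before the start, on the minus strand) and in IRG1 (63 to 56 bases before it), and 22.8% of all promoters held it. Every match to the tandem element also contains a match to the shorter one. The absence of a match says only that these letters are not in this window. Base composition differed widely among the 4: CAND2 was 73.6% G and C with 24 CpG pairs in the 250 bases, and IRG1 was 36.4% with 2, against medians of 58.0% and 11 over all promoters. SLAMF8 had 52.4% and 5 CpG pairs, and CACNA1I 60.8% and 3.

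Values are normalised read counts, that is whole reads divided by 1 size factor per library, and 1 read was worth 0.835 to 1.16. SLAMF8 had the most reads of the 5. It had 2, 8 and 4 reads in control 1, 2 and 3, and 503, 447 and 467 in IFNg 1, 2 and 3. As normalised counts these were 2.14, 6.68 and 3.89 against 467, 462 and 541. It was detected in every library, and the lowest IFNg value, 462, was far above the highest control value, 6.68. The mean went from 4.24 ± 2.29 to 490 ± 44.2 (SD, n = 3 each). The pooled ratio was 110 (95% exact binomial interval 65.3 to 202, counting error only).

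CAND2 came next. Its reads were 10, 0 and 0 in the controls and 327, 320 and 349 in the IFNg libraries, or 10.7, 0 and 0 against 304, 331 and 404 as normalised counts. All control reads lay in 1 library, control 1. The mean went from 3.57 ± 6.18 to 346 ± 52.0 (SD, n = 3 each), a pooled ratio of 108 (95% exact interval 58.6 to 226, counting error only). The 95% exact Poisson interval of control 1 (5.14 to 19.7) did not overlap those of control 2 (0 to 3.08) and control 3 (0 to 3.59). The interval of the pooled ratio leaves out that spread and is too narrow for CAND2. The log2 difference of CAND2 on the log2(value + 1) scale was 7.25 and became 8.43 without control 1.

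BANCR had no read in any control and 168, 69 and 126 reads in IFNg 1, 2 and 3. The normalised counts were 156, 71.3 and 146 (mean 124 ± 46.3, SD, n = 3). IFNg 2 was low: its 95% exact Poisson interval, 55.5 to 90.2, did not overlap those of IFNg 1 (133 to 182) and IFNg 3 (122 to 174). Taking 3 reads over the control group as the limit that a count of 0 allows, BANCR was at least 131-fold higher. The 95% exact Poisson interval for a count of 0 ends higher, at 3.69 reads, and would give a smaller fold.

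IRG1 was the least even of the 5. It too had 0 reads in the controls, and 6, 55 and 47 in IFNg 1, 2 and 3, which are normalised counts of 5.57, 56.8 and 54.4 (mean 38.9 ± 28.9, SD, n = 3). IFNg 1 (95% exact Poisson interval 2.05 to 12.1) lay far below IFNg 2 (42.8 to 74.0) and IFNg 3 (40.0 to 72.4). That interval reaches below the upper ends of the same kind of interval for 0 reads, 3.95, 3.08 and 3.59 in control 1, 2 and 3. Such an overlap does not show that the counts are alike, and no test compared IFNg 1 with the controls. The gene was at least 39.1-fold higher over the group. Its log2 difference of 4.79 became 5.82 without IFNg 1.

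CACNA1I had 0 reads in the controls and 78, 68 and 70 in the IFNg libraries, or 72.5, 70.3 and 81.1 as normalised counts (mean 74.6 ± 5.72, SD, n = 3). The 3 values lay within each other's Poisson intervals. It was at least 78.2-fold higher, with the floor as for BANCR. Every IFNg library was above every control library in all 5 genes, as the choice of the genes requires, and 10.7% of the 15546 genes tested had that order. All 5 passed the filter on low values, which asks for 0.5 in 3 libraries. BANCR, IRG1 and CACNA1I could pass it only through the IFNg libraries.

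**Figure D1:**
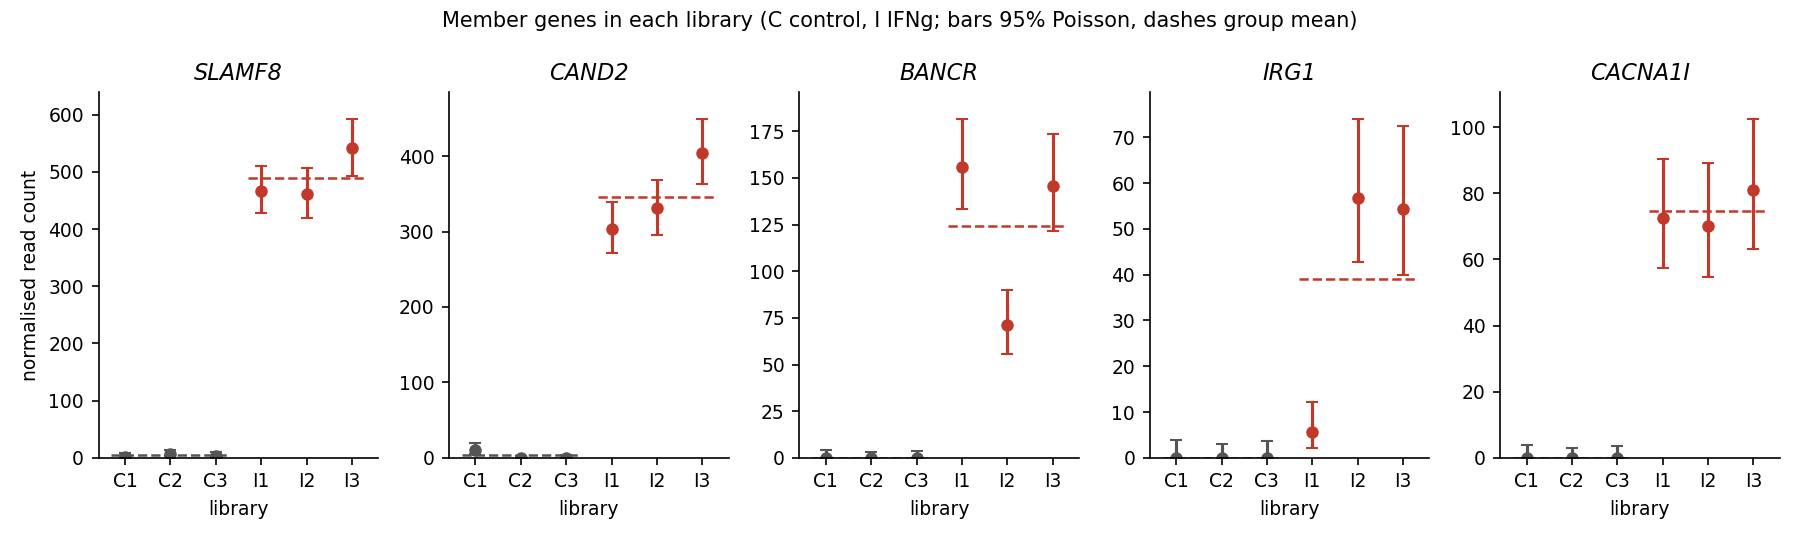
Normalised read count (y axis, linear from 0, own scale per gene) of the 5 genes in control 1 to 3 (C1 to C3, grey) and IFNg 1 to 3 (I1 to I3, red), with 95% exact Poisson intervals that cover counting error only and dashed group means. CACNA1I stays between 70.3 and 81.1 in IFNg, whereas IRG1 spans 5.57 to 56.8 and BANCR 71.3 to 156.

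The genes differed in how evenly the IFNg libraries carried them. The coefficient of variation over the 3 IFNg libraries was 7.67% for CACNA1I, 9.01% for SLAMF8, 15.0% for CAND2, 37.2% for BANCR and 74.3% for IRG1. Each was set against genes whose IFNg reads were within 1.5-fold of its own. CACNA1I had a smaller spread than most in these 3 libraries: only 3.23% of 837 such genes had a lower coefficient, and their median was 35.6%. Its 3 values lay within each other's Poisson intervals, so counting error alone covers their spread. IRG1 was more variable than most, with 79.1% of 924 such genes below it and a median of 48.9%. SLAMF8, CAND2 and BANCR lay at 20.3%, 37.5% and 68.8%. The highest IFNg library was IFNg 3 for SLAMF8, CAND2 and CACNA1I, IFNg 1 for BANCR and IFNg 2 for IRG1, so no library was highest for all 5.

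Per kilobase of exon the order changed. With exon lengths from GENCODE 29 (848 bases for BANCR to 10792 for CACNA1I), the IFNg level was 164 ± 14.7 normalised reads per kilobase for SLAMF8, 147 ± 54.6 for BANCR, 62.0 ± 9.31 for CAND2, 17.9 ± 13.3 for IRG1 and 6.91 ± 0.530 for CACNA1I (SD, n = 3). SLAMF8 and BANCR did not differ beyond their spread, since BANCR ran from 84.1 to 184 and SLAMF8 from 154 to 181. CAND2 (54.4 to 72.4) lay below both in every library. IRG1 ran from 2.56 to 26.1 and so spanned CACNA1I (6.51 to 7.51). Among 15487 genes with a length, these levels stood at percentile 45.7 for SLAMF8, 44.2 for BANCR, 35.5 for CAND2, 26.9 for IRG1 and 20.7 for CACNA1I. The authors' gene models were not used for these lengths.

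Overlapping genes bear on 2 of the values, because the strand setting of the read counting is not given in the sources used here. In GENCODE 29, 2066 of the 2996 exonic bases of SLAMF8 lie opposite exons of SNHG28, an antisense gene listed in the table as C1orf204. C1orf204 had 428 reads over the controls, where SLAMF8 had 14, and 758 over the IFNg libraries, where SLAMF8 had 1417. In CAND2, 320 of 5587 exonic bases lie opposite RPL32, a ribosomal protein gene of high expression in most cells. RPL32 has no values under that symbol in these data. Whether reads of RPL32 were counted for CAND2 was not tested. A further 202 exonic bases of CAND2 are shared with a pseudogene on the same strand. No exon of another annotated gene overlapped BANCR, IRG1 or CACNA1I.

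To place the genes in the whole table, a gene was called near 0 in control and present in IFNg if it had at most 20 reads over the controls, at least 60 over the IFNg libraries and at least 10 in each of these. This held for 48 of 17187 genes (0.279%), among them 4 of the 5. IRG1 fell outside through its 6 reads in IFNg 1. The opposite pattern held for 31 genes (0.18%), at lower levels. The group with reads held a median of 154.5 reads and at most 1417 among the 48, and a median of 74 and at most 154 among the 31. Of the 48, 18 had at least 200 reads, and of the 31, none did. By IFNg reads, SLAMF8 had rank 1 among the 48, CAND2 rank 3 and BANCR rank 12.

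Other genes of that pattern with more IFNg reads than BANCR included GBP1P1 (a pseudogene related to GBP1, 1066 reads over the IFNg libraries), EPSTI1 (806), the ubiquitin-like modifier UBD (502), the galectin gene LGALS9 (486), the chloride channel family gene CLIC2 (427), C20orf141 (401) and TNFSF10, which encodes the death ligand TRAIL (390). GBP1P1 and UBD had 0 control reads, and a limit of 3 reads puts the control level of GBP1P1 under 0.259% and that of UBD under 0.550% of the IFNg level. The control level of SLAMF8 was 0.910% and that of CAND2 0.924% of the IFNg level. Genes with most reads of the opposite pattern included the receptor kinase gene KIT (154 reads in control, 3 in IFNg), CCDC110 (148 and 12), PTHLH, the gene of parathyroid hormone-related protein (145 and 6), and PPL, the gene of the junction protein periplakin (125 and 14).

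The control reads of the 5 were set beside those of other genes at their IFNg level, as a description only, since low control reads were what the genes were picked for. Of 1285 other genes with IFNg reads within 1.5-fold of SLAMF8, 1 had no more control reads than SLAMF8 (GBP1P1). For CAND2 there were 2 of 1108 (GBP1P1 among them), and for BANCR 3 of 882 (IFI44L, UBD and USP30-AS1). For CACNA1I there were 5 of 837 and for IRG1 4 of 924. In the other direction, with the groups swapped, such genes numbered 0 for SLAMF8, CAND2, BANCR and CACNA1I and 1 for IRG1.

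**Figure D2:**
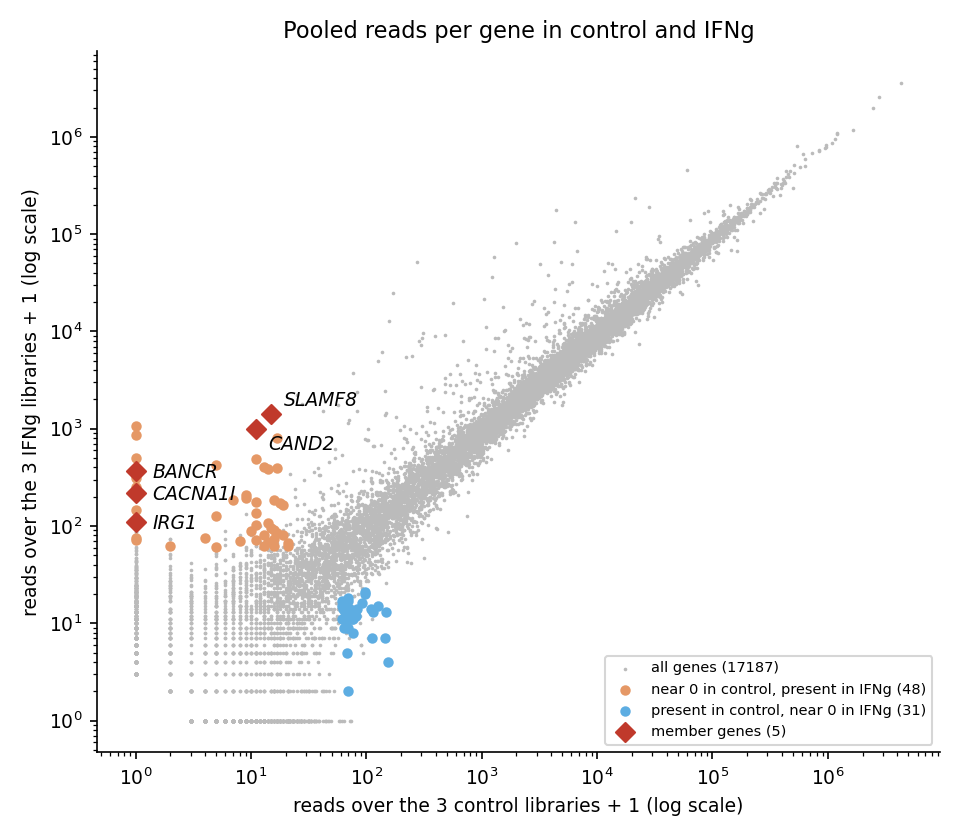
Reads over the 3 IFNg libraries plus 1 (y axis) against reads over the 3 control libraries plus 1 (x axis), both on log scales, for 17187 genes (grey), the 48 near 0 in control and present in IFNg (orange), the 31 with the opposite pattern (blue) and the 5 described genes (red diamonds). SLAMF8 and CAND2 sit at 14 and 10 control reads, BANCR, CACNA1I and IRG1 at 0, and the orange points reach higher than the blue ones reach to the right.

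For each of the 5, the most similar genes were taken as those with the smallest root mean square difference of log2(value + 1) over the 6 libraries. CACNA1I was closest to LGALS17A (0.11), a galectin-related pseudogene, with 0 control reads and 78.0, 62.0 and 71.8 in the IFNg libraries, and then to TEX29 (0.31). BANCR was closest to IFI44L (0.31), an interferon-induced gene, at 92.9, 80.6 and 156, and to UBD (0.47). The nearest to IRG1 were ANO2 (0.74), the gene of a calcium-activated chloride channel, at 8.36, 49.6 and 18.5 in IFNg, and PDGFRA (0.78), a receptor kinase gene, at 16.7, 35.1 and 25.5. Both were also lowest in IFNg 1. CAND2 was nearest to TNFSF10 (0.99), whose 16 control reads likewise all lay in control 1, and EPSTI1 (1.37). SLAMF8 was nearest to BST2 (1.02), which encodes the virus restriction factor tetherin, and SLC15A3 (1.10), a lysosomal peptide and histidine transporter gene. The distances of SLAMF8 and CAND2 were thus larger than those of CACNA1I and BANCR. CACNA1I, BANCR and the genes named beside them had 0 in all controls, so the controls added nothing to those distances. The few control reads of SLAMF8 and CAND2 entered theirs, and low control reads were what the genes were picked for. The sizes of the distances therefore cannot be compared between the genes.

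The relatives of each gene were then read from the test across all 15546 genes (limma, Benjamini-Hochberg adjustment at 0.05), which called 509 genes higher (3.27%) and 163 lower (1.05%) in IFNg, 4.32% in all. edgeR on recovered reads called 4.69% of 14187 genes and DESeq2 6.53% of 15855. At these shares a short list would hold few calls or none. Without both libraries numbered 3, limma called more genes, 882 higher and 599 lower, and calls given for that fit below are to be read beside those numbers. In the SLAM family and its adaptors, 0 of 4 other tested genes passed by limma, edgeR or DESeq2, and 0 had an unadjusted limma p under 0.05. SLAMF9 was 344 ± 104 in control and 457 ± 100.1 in IFNg (log2 difference 0.44 ± 0.28, SE; limma adjusted p = 0.523). SLAMF7 was 382 ± 93.1 and 300.2 ± 52.1 (adjusted p = 0.633), and the adaptor gene SH2D1B, also called EAT2, 118 ± 30.9 and 160.2 ± 41.6 (adjusted p = 0.640). SLAMF6 had 6 reads in the controls and 0 in IFNg and was not tested.

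CAND1, the widely expressed relative of CAND2, was abundant in every library, at 18778 ± 1374 and 21928 ± 1823 (log2 difference 0.22 ± 0.09, limma adjusted p = 0.273). Of 31 other genes of the cullin and NEDD8 system, CAND1 included, limma, edgeR and DESeq2 called 0, and 3 had an unadjusted limma p under 0.05. CUL2 and CUL4B, scaffold subunits of the ligases, differed by 0.17 ± 0.11 and -0.17 ± 0.09. Without the libraries numbered 3, 1 gene of this list was called lower, COPS2, a subunit of the COP9 signalosome that removes NEDD8. The median log2 difference of the list was -0.03, against -0.01 over all genes tested.

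CACNA1G, the other T-type pore subunit gene measured, had 17 reads over the controls and 20 over IFNg, where CACNA1I had 0 and 216. Of 14 other tested calcium channel subunit genes, limma, edgeR and DESeq2 called 0, and 0 had an unadjusted limma p under 0.05. The auxiliary subunit genes were well above CACNA1I in reads: CACNA2D1 was 3384 ± 255 and 3521 ± 157 (log2 difference 0.06 ± 0.10, limma adjusted p = 0.863), CACNA2D4 3061 ± 691 and 2403 ± 312 (adjusted p = 0.378) and CACNB3 1238 ± 118 and 1070.2 ± 185 (adjusted p = 0.605).

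The enzymes around IRG1 were abundant in both groups, and 0 of 25 genes of the citrate cycle and of itaconate handling passed in limma or edgeR (4 with an unadjusted limma p under 0.05), with a median log2 difference of -0.00051. Citrate synthase (CS) was 22439 ± 958 and 22985 ± 1482 (log2 difference 0.03 ± 0.09, limma adjusted p = 0.913), MDH2 differed by -0.12 ± 0.12 and ACLY, which splits cytosolic citrate, by -0.01 ± 0.09. CLYBL, a mitochondrial lyase of the itaconate breakdown route, is singled out after its values were seen. It went from 204, 129 and 86.6 in the controls to 62.3, 32.0 and 56.8 in the IFNg libraries, and the groups did not overlap. Its log2 difference of -1.43 ± 0.46 missed the threshold in limma (adjusted p = 0.130), but passed with DESeq2 (0.0488) and without the libraries numbered 3 (0.0478).

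A pair of lists was set beside SLAMF8 and IRG1, genes that IFNg induces in macrophages and in many other cells, and genes that mark macrophages themselves. Of 22 tested genes known from IFNg-activated macrophages, 13 were higher and 0 lower by limma (13 and 0 by edgeR, 12 and 0 by DESeq2). The list median was 3.31, against -0.01 over all genes. GBP5, GBP2, GBP1, CIITA and IL18BP had the smallest adjusted p, with log2 differences of 7.71, 5.64, 5.45, 5.06 and 3.46. IL1B, at 34804 ± 17445 and 21496 ± 10178, did not pass (limma adjusted p = 0.526), nor did IL12A (0.541) or TNFAIP3 (0.538). With the replicate number as a block, IL1B was called lower (limma adjusted p = 1.08e-07) and TNFAIP3 was not called (0.105). Without the libraries numbered 3, IL1B and TNFAIP3 were called lower, as they were without control 3 alone (adjusted p = 0.0383 and 0.0103), and 13 genes were again higher. Of those 13, TNFSF10 was lost by DESeq2 (adjusted p = 0.207), and SERPING1 was lost without IFNg 2 (0.0705) or IFNg 3 (0.0763). Without a variance trend both were lost (0.124 for TNFSF10 and 0.11 for SERPING1).

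Of 13 tested macrophage identity genes, 0 passed in limma or edgeR (2 with an unadjusted limma p under 0.05). DESeq2 called 1, the scavenger receptor gene MSR1, with 0 control reads and 42 over IFNg. MSR1 missed the threshold in the main limma fit (adjusted p = 0.0913). It passed in limma without the filter (0.0405) and without a variance trend (0.0198). CD14 had 0 reads in 5 libraries and 28 in IFNg 2, and SPI1, which encodes the myeloid factor PU.1, 6 reads in IFNg 3 only. PTPRC, the CD45 gene, had 19 and 49 reads over the groups. The summed level of the 15 macrophage genes in the table ran from 10636 to 16840 in the controls and from 9632 to 15594 in IFNg, most of it CD68 (13349 ± 3090 and 12176 ± 3118), which is also expressed outside macrophages. The Fc receptor gene FCGR2A went from 13.8 ± 21.5 to 75.5 ± 42.6. FCGR2A missed the threshold in the main limma fit over all 6 libraries (adjusted p = 0.0961). It passed with the replicate number as a block (0.00276) and without control 1, at 38.6 (adjusted p = 0.00984). Whether these genes have a part in the differences of SLAMF8 and IRG1 was not tested.

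Markers of the other tissues from which the 5 genes are known were few and mostly did not pass. Tested were 7 of 15 listed melanocyte genes, 9 of 20 neuron, 5 of 22 lymphocyte and natural killer cell and 6 of 32 striated muscle genes. With 4.32% of all genes called, lists this short would hold few calls or none, so a lack of calls says little. Of 7 melanocyte genes, set beside BANCR, limma, edgeR and DESeq2 called 0 (0 with an unadjusted limma p under 0.05). MITF, the melanocyte lineage factor, was 755 ± 197 and 548 ± 42.7 (adjusted p = 0.402), and DCT 339 ± 73.9 and 346 ± 95.7. CXCL11, the chemokine gene linked to BANCR, had 0 reads in the controls and 0, 4.13 and 94.99 normalised counts in IFNg 1, 2 and 3, and was too sparse for the test. CXCL11 was highest in IFNg 3 and BANCR in IFNg 1. Of 9 neuron genes, set beside CACNA1I, all 3 tools called 0 (3 with an unadjusted limma p under 0.05). SNAP25 was 269 ± 41.5 and 312 ± 52.3 (limma adjusted p = 0.783), and DLG4 was 2950 ± 741 and 2049 ± 377 (0.212). Without the libraries numbered 3, 2 neuron genes were called lower, SYT1 and DLG4 (limma adjusted p = 0.00821 for DLG4). DLG4 was also called lower without control 3 alone (0.0136) and over all 6 libraries with the replicate number as a block (0.00363). Of 5 lymphocyte and natural killer cell genes, all 3 tools called 0 (1 with an unadjusted limma p under 0.05).

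Striated muscle, set beside CAND2, gave 1 call among 6 tested genes. TTN, which encodes the giant sarcomere protein titin, rose from 268, 173 and 154 in the controls to 1584, 1361 and 1787 in the IFNg libraries (log2 difference 3.02 ± 0.24, limma adjusted p = 5.64e-06), and it passed in each of the 15 other fits. MYH3 (219 ± 13.1 and 195 ± 14.0), TNNT1 (409 ± 52.5 and 512 ± 20.3) and ACTN2 (205 ± 29.8 and 214 ± 8.56) did not pass. PYGM, singled out after its values were seen, went the other way, from 63 reads over the controls to 8 over IFNg. Its means were 19.8 ± 2.55 and 3.09 ± 5.35. PYGM was not called in the main fit over all 6 libraries but was lower in at least 1 fit that left out 1 library. The summed level of the 16 muscle genes in the table ran from 999.6 to 1148 in the controls and from 2257 to 2815 in IFNg, most of the latter TTN. Of 21 mesenchymal genes, which mark the fibroblast-like state of the line, 20 did not pass and PLAU, the urokinase gene, was lower (-0.53 ± 0.10, limma adjusted p = 0.00709). That is 1 of 21, near the 4.32% of all genes called. Without the libraries numbered 3, 2 mesenchymal genes were lower. The PLAU call was lost without control 2 (0.0558), IFNg 1 (0.0697) or IFNg 2 (0.0669), and without a variance trend (0.117). VIM, the vimentin gene, was 380457 ± 44482 and 369946 ± 48203, the highest level of that list.

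**Figure D3:**
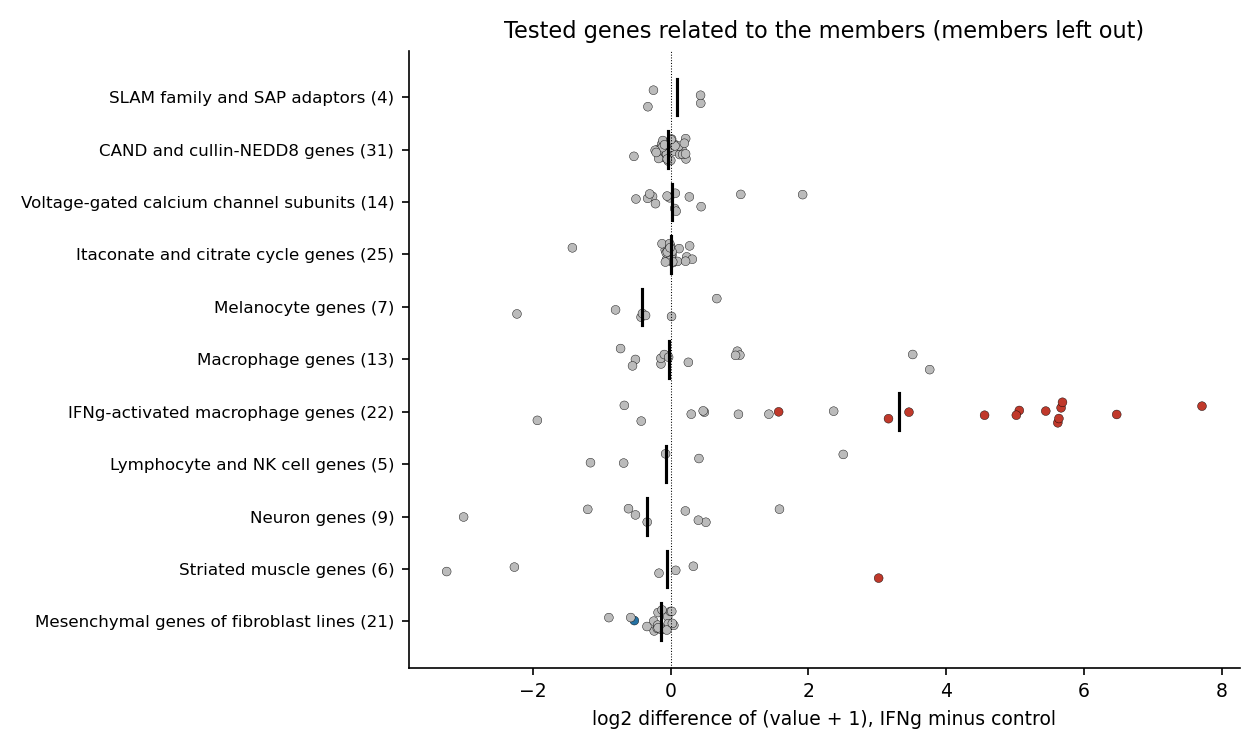
Log2 difference of (value + 1), IFNg minus control (x axis), for the tested genes of 11 lists (rows, number of genes in brackets; the 5 described genes left out), with genes called higher by limma in red, lower in blue and not called in grey. Black bars are list medians; red points lie in the list of IFNg-activated macrophage genes (13 of 22) and at TTN, and the blue point is PLAU.

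Genes next to the 5 on the chromosomes were read in the same fit. The 3 nearest measured genes on each side of each were taken in RefSeq order, 30 in all, of which 28 were tested. Limma called 2 higher and 1 lower (5 with an unadjusted p under 0.05), that is 3 of 28 beside 4.32% of all genes tested. The median log2 difference was 0.04. Without both libraries numbered 3, limma called 4, in a fit that also called more genes over all (882 higher and 599 lower). Over all 6 libraries, neither nearest neighbour of SLAMF8 was called: FCRL6 had 0 reads in the controls and 28 in IFNg and was not tested, and C1orf204 differed by 0.78 ± 0.43 (limma adjusted p = 0.436). C1orf204, which overlaps SLAMF8 on the opposite strand, was 110, 164 and 126 in the controls and 275, 377 and 112 in IFNg 1, 2 and 3, and it was called higher without both libraries numbered 3 (adjusted p = 0.0484). Further away, 30 annotated genes from SLAMF8, AIM2, a cytosolic DNA sensor gene, rose by 4.56 ± 0.34 (adjusted p = 3.75e-06). AIM2 is also 1 of the 13 higher genes in the list of IFNg-activated macrophage genes, so it is counted in both places. After CAND2, SNORA7A differed by -0.89 (adjusted p = 0.444).

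After BANCR, FAM189A2 differed by -0.24 (adjusted p = 0.934). Beside IRG1, KCTD12 differed by 0.22 (adjusted p = 0.451). The last of the 3 measured genes after it, MYCBP2, which encodes a large ubiquitin ligase, rose by 0.52 ± 0.09 (adjusted p = 0.00365). The MYCBP2 call was lost without a variance trend (0.0853). Beside CACNA1I lies ATF4, the stress response factor gene, which was lower by limma (-0.39 ± 0.10, adjusted p = 0.0481). The ATF4 call was lost without control 2 (0.196), control 3 (0.0525), IFNg 1 (0.196) or IFNg 2 (0.250), and also without a variance trend (0.264), without the filter (0.0552) and with a pseudocount of 0.5 (0.0501). GRAP2, on the other side, had 55 and 58 reads.

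**Figure D4:**
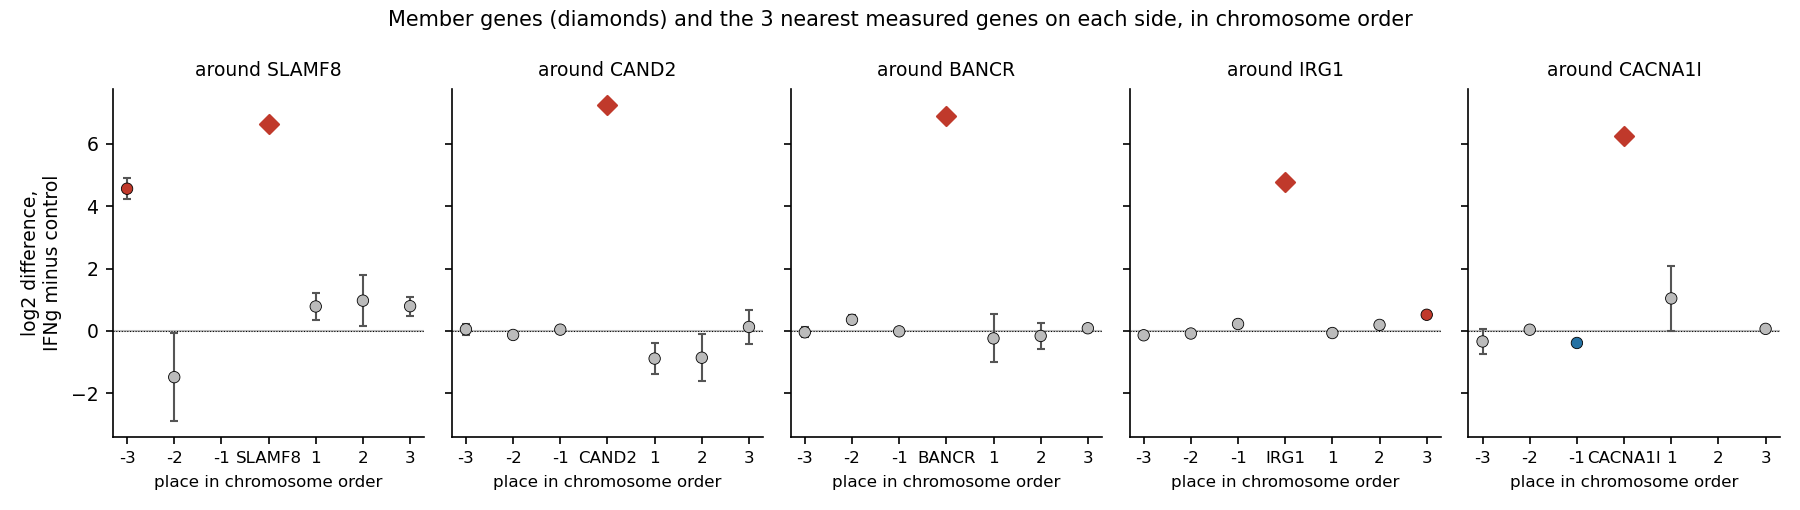
Log2 difference, IFNg minus control (y axis), of the 5 genes (red diamonds) and of the 3 nearest measured genes on each side (x axis, place in chromosome order, -3 to 3, not to scale), with the standard error of the limma fit; red is called higher, blue lower, grey not called, and FCRL6 and FAM83F were not tested. AIM2, MYCBP2 and ATF4 are the called neighbours, and AIM2, at 4.56, has the largest difference among them.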

How the data were processed

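Total RNA of 6 HT-1080 libraries was sequenced. FastQC 0.11.3, TopHat2 2.0.13, Cufflinks and Cuffdiff 2.2.1 were used with hg19 or GRCh37, per the submitters' processing notes, which do not give their roles. Sources used here do not give the read counter, strand setting or scaling tool. The table deposited by the authors is named RPKM but holds a signal: in each library 100% of positive values were whole multiples of 1 step (tolerance 0.001 reads), so reads were recovered and values were not divided by length. Each size factor matched the median-of-ratios factor computed from the recovered reads. The main test was limma 3.58.1 (R 4.3.3) on log2(value + 1) with a variance trend, over genes with at least 0.5 in at least 3 libraries, 2-sided, Benjamini-Hochberg at 0.05. edgeR 4.0.16 (665 genes called) and DESeq2 1.42.0 on recovered reads, other pseudocounts (0.5 and 4) and filters, and fits without single libraries were alternatives. Scripts were tested on simulated data. Counting intervals are 95% exact (scipy 1.17.1) and, like the floor of 3 reads, cover counting error only. Whether both mates of a read pair were counted is not given in the sources used here. If they were, the intervals are too narrow and the at-least ratios too high. Exon lengths are unions of GENCODE 29 exons. The genes and lists were chosen with earlier results of these data known. Named were the 5 genes, in each list up to 5 called genes by adjusted p and up to 3 uncalled genes by level, nearest neighbours, the 2 most similar genes, and the 10 and 5 genes with most reads of the near-0 patterns; exceptions are marked. Some genes that this rule names are not reported here.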

Additional observations from a re-analysis of the deposited data

How the results depend on the processing

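Counts of calls depended on the fit. Over all genes, limma called 509 higher and 163 lower. The numbers were 279 and 41 without a variance trend, 882 and 599 without both libraries numbered 3, and, for lower genes, 332 with DESeq2. Leaving out 1 library gave 330 to 847 higher and 37 to 455 lower. Of the genes in the 11 lists, 14 were higher, and 13 to 15 without 1 library. The 1 lower gene became 0 without a trend, 2 with DESeq2, 8 without both libraries numbered 3 and 0 to 4 without 1 library. The called neighbours numbered 3, 1 without a trend, 4 without both libraries numbered 3 and 2 to 3 without 1 library.

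With the replicate number as a block, 915 genes were higher and 549 lower, 5 list genes were lower, and 3 neighbours were called. Same-numbered libraries had correlations of 0.0437, 0.0209 and 0.111 in their deviations from the group means. For control 1 and control 3, the same-numbered IFNg library gave the highest correlation. Control 3 had -0.0678 with IFNg 1 and -0.0516 with IFNg 2. The correlation of control 2 was slightly larger with IFNg 1 (0.0216) than with IFNg 2. These values do not settle whether the numbers pair the samples, and the main fit was made without the block.

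The log2 differences of low genes depend on the pseudocount. With 0.5 and 4 they were 7.93 and 5.82 for CAND2, 7.88 and 4.93 for BANCR, 5.74 and 3.02 for IRG1 and 7.23 and 4.29 for CACNA1I, and SLAMF8 was 5.94 with 4. Without 1 library SLAMF8 ran from 6.32 to 6.96, CAND2 from 6.65 to 8.43, BANCR from 6.69 to 7.25, IRG1 from 4.25 to 5.82 and CACNA1I from 6.18 to 6.28. The 48 genes near 0 in control and present in IFNg became 14 with at most 3 control reads and 18 with at least 200 IFNg reads. The 31 of the opposite pattern became 2 and 0. In the bases before the start site alone, 6.57% of promoters held TTCNNNGAA and 3.02% the tandem IRF element. The shorter AANNGAAA, chosen after seeing the data, matched 2 of the 4 promoters where the longer motif matched 0.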
